A study of Mus musculus with 4 samples.

Results

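The stroma-rich spots of the newborn mouse esophagus are the spots in which messenger RNA of 5 connective tissue genes was densest. They were taken from 2 sections of esophagus from untreated wild-type (WT) mice at postnatal day 0 (P0), each 8 µm thick and fresh frozen, measured on Visium slides. A Visium spot is a barcoded patch of the slide that captures RNA from the several cells above it, often of different types, and each captured molecule is counted once through its unique molecular identifier (UMI). Spots over tissue with at least 500 UMIs were kept and scored by the mean over Col1a1, Col3a1, Dcn, Lum and Dpt of log(1 + UMIs per 10000). The highest 20% of each section were members, 73 of 363 kept spots in P0 replicate 1 and 53 of 264 in P0 replicate 2, together 126 of 627 P0 spots and of 7435 kept spots in the series. The series also holds 1 section of WT mouse embryo at E13.5 and 1 at E16.5. The labels do not say whether the P0 sections came from different neonates, so no p-value can be read as a spread between animals. Each sets a difference between groups of spots against the variation left over 2 sections, and most of that estimate is borrowed from other genes.

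Stroma is the connective tissue that carries the epithelium, vessels and nerves of an organ. Its fibroblasts secrete fibrillar collagens, small proteoglycans and elastic fibres, and tissue macrophages and blood and lymphatic vessels run through it. In the esophagus it forms the lamina propria and submucosa between the stratified epithelium and the muscle coat, and an outer adventitia, and in the developing foregut mesenchyme exchanges Hedgehog, BMP, Wnt and retinoic acid signals with the epithelium.

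The selecting genes are given first, as a description with no test. A level is the number of UMIs per 1000000 UMIs (CPM) after all spots of a class in a section were summed. Col1a1, a chain of type I collagen, stood at 6049 and 6387 CPM in the stroma-rich spots of replicates 1 and 2, against 1397 and 1473 CPM in the other kept spots. Col3a1, type III collagen, stood at 10744 and 10949 CPM against 2488 and 2504 CPM. The small proteoglycan gene Dcn stood at 1989.8 and 2044 CPM against 441 and 442 CPM. Lum, its relative, and Dpt, which encodes dermatopontin, were denser in stroma-rich spots in both sections in the same way. Lum stood at 1079 and 1164 CPM against 233 and 239.9 CPM, and Dpt at 347 and 470.2 CPM against 57.7 and 77.4 CPM. The last spots inside the limit scored 2.76 and 2.81 and the first outside 2.75 and 2.80, so the limit cuts a continuous range of scores.

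Stroma-rich spots adjoined each other more often than other spots adjoined them, more so in replicate 1. Members made up 35.2% and 24.3% of the grid neighbours of members and 18.1% and 19.001% of the neighbours of other spots. In replicates 1 and 2, 17 of 73 and 25 of 53 members had no member among their neighbours. The remaining spots were divided for comparison into epithelium-rich spots (91 and 66), muscle-rich spots (60 and 48) and the rest (139 and 97), where a region holds the non-member spots among the highest 25% of kept spots by its markers. Of 73 and 53 members, 37 and 24 touched an epithelium-rich spot, 34 and 17 a muscle-rich spot, and 14 and 3 both. An epithelium-rich spot was touched by 50.7% and 45.3% of members and by 62.8% and 53.1% of other spots. For a muscle-rich spot the shares were 46.6% and 32.1% against 34.8% and 32.2%. No member was among the highest 25% by epithelial score, whereas 31 of 73 and 18 of 53 were among the highest 25% by muscle score. Stroma-rich spots were shallower than the others, with median depths of 17184 and 16104 UMIs against 29497 and 29632 UMIs.

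**Figure D1:**
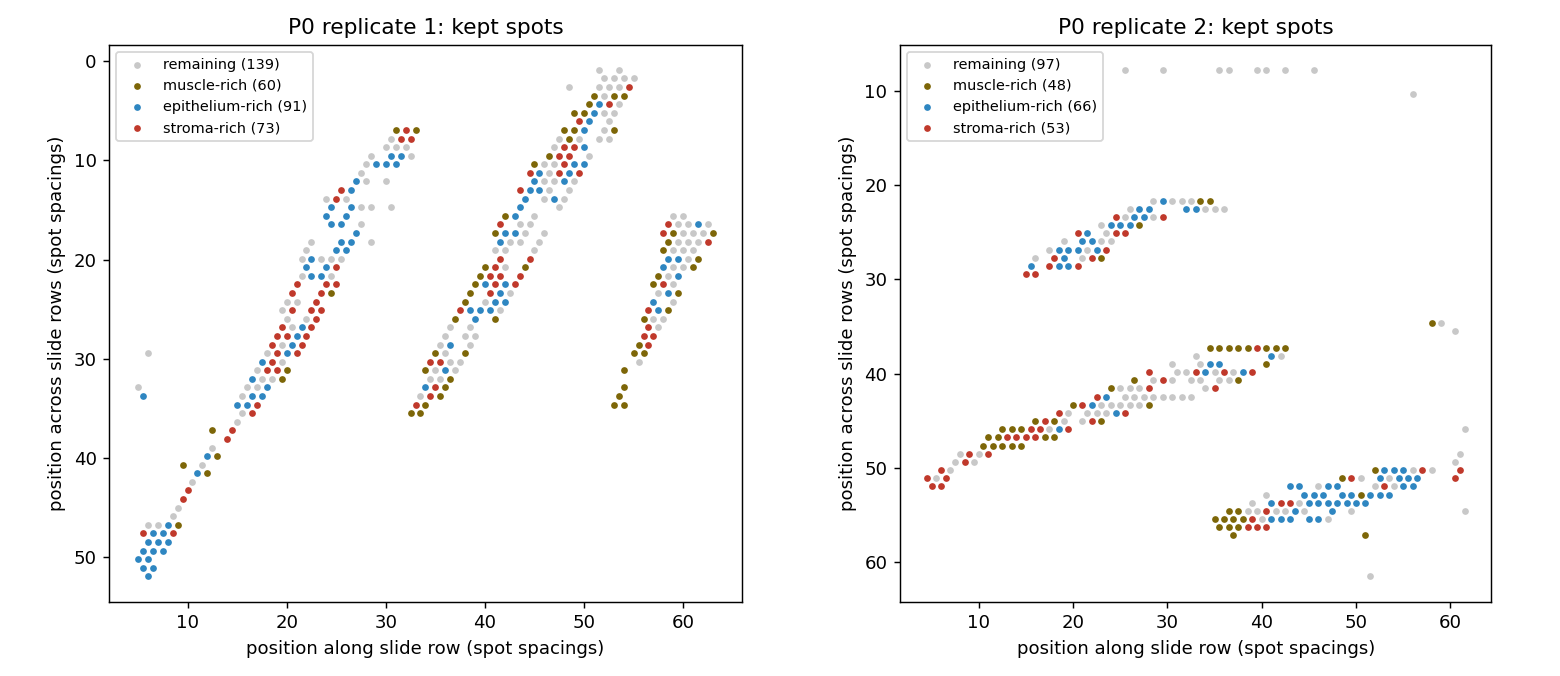
Kept spots of the 2 P0 sections on the slide grid, in units of spot spacings, coloured by class, with the number of spots of each class in the legend. Of the 73 and 53 stroma-rich spots, 17 and 25 have no stroma-rich neighbour, 37 and 24 touch an epithelium-rich spot and 34 and 17 a muscle-rich spot.

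Every class holds a mixture of cells, and the marker lists show which. In the stroma-rich spots of replicates 1 and 2 the 10 epithelial markers summed to 3749 and 4404 CPM, against 17274 and 17733 CPM in epithelium-rich spots. The 6 smooth muscle markers summed to 13218 and 8057 CPM, against 18392 and 12555 CPM in muscle-rich spots. The 8 striated muscle markers summed to 1509 and 2953 CPM, against 5383 and 15839 CPM. Epithelial and muscle RNA was thus present in stroma-rich spots. The regions were chosen by these same markers, so their higher sums follow largely from that choice. The 6 macrophage markers and the 6 endothelial markers were densest in stroma-rich spots, at 899 and 742 CPM and at 440 and 531 CPM. The fat-cell markers Adipoq, Plin1 and Cidec were at 0 in the stroma-rich, epithelium-rich and muscle-rich spots of both sections, so they do not set these classes apart. All 4 cartilage markers were at 0 in the stroma-rich spots of replicate 1. In those of replicate 2 they summed to 4.32 CPM, with 2 of 4 at 0. In such sums, fewer cells of a type and less RNA per cell cannot be told apart.

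The first comparison asks which other genes share the stroma-rich spots, and it set these spots against all other kept spots of their section. Counts were summed per section and class and tested by edgeR's quasi-likelihood method in a model that holds the section, and p-values were adjusted by Benjamini and Hochberg's method with a limit of 0.05. Of 12816 genes tested, 2375 (18.5%) were higher and 2322 (18.1%) lower in stroma-rich spots. Since the spots were chosen on the same counts, these calls describe what accompanies the 5 genes and are no independent test. With the other spots matched to members on UMIs, an alternative chosen after seeing the data, 652 genes were higher and 645 lower. Fold changes are relative to the typical gene, because the fitted median was −0.00 while the median gene's CPM ratio was 0.23 and 0.17 on the log2 scale in the 2 sections.

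The most enriched genes are known from fibroblasts of the outer connective tissue, macrophages and lymphatic vessels. Clec3b, which encodes the secreted protein tetranectin and marks adventitial fibroblasts, stood at 275 and 368 CPM in stroma-rich spots and at 44.8 and 49.6 CPM in other spots, a log2 fold change of 2.54 ± 0.11 (standard error, SE). Pi16, another marker of adventitial fibroblasts, stood at 117 and 121 CPM against 22.5 and 19.9 CPM (2.26 ± 0.13). Tnxb, a matrix glycoprotein that binds collagen fibrils, stood at 319 and 506 CPM against 62.8 and 72.3 CPM (2.36 ± 0.12). For these genes the stroma-rich value lay above that of the other spots in both sections, a condition of naming them by rank, and the values did not overlap. Lyve1, the hyaluronan receptor of lymphatic endothelium and of some tissue macrophages, had the largest fold change of the genes named by rank, with 78.0 and 60.5 CPM against 8.27 and 6.84 CPM (2.98 ± 0.20).

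Among the other leading genes, Mrc1, the mannose receptor of tissue macrophages, stood at 119 and 82.2 CPM against 21.2 and 17.3 CPM (2.18 ± 0.14). F13a1, a transglutaminase of macrophages, stood at 66.5 and 37.8 CPM against 9.83 and 8.40 CPM (2.32 ± 0.22). The complement protease gene C1ra had a log2 fold change of 2.24 ± 0.17, and the matrix protease Adamts5 had 2.26 ± 0.17. Pi15, Ccn3, the natriuretic peptide receptor gene Npr1 and Rab3il1 followed at 2.75 ± 0.23, 2.54 ± 0.26, 2.51 ± 0.27 and 2.18 ± 0.20.

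Ahsg, which encodes the liver-secreted plasma protein fetuin-A, was carried by replicate 2, with 117 CPM against 14.2 CPM there and 6.12 against 2.68 CPM in replicate 1. In replicate 2, 49 of the 108 Ahsg UMIs of stroma-rich spots lay in 1 spot, and 13 of 53 spots held any. Without that spot the level of Ahsg was 65.2 CPM. The same spot held the most Alb, Afp and Apoa1 of the members of that section, with 64, 28 and 20 UMIs of these liver genes.

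The most depleted genes belong largely to the differentiating epithelium. Arg1, which encodes arginase, stood at 170.5 and 116 CPM in stroma-rich spots against 1207 and 1225 CPM in other spots (−3.29 ± 0.15). The defensin genes Defb1 and Defb4 had log2 fold changes of −3.49 ± 0.21 and −3.43 ± 0.24, and the keratin gene Krt6b had −3.42 ± 0.22. Cwh43 was lowest of the group at −3.64 ± 0.24. Plekhh1, Bspry, the chemokine gene Ccl6, the epithelial transcription factor gene Elf5 and Liph had −3.58, −3.56, −3.38, −3.22 and −3.17.

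**Figure D2:**
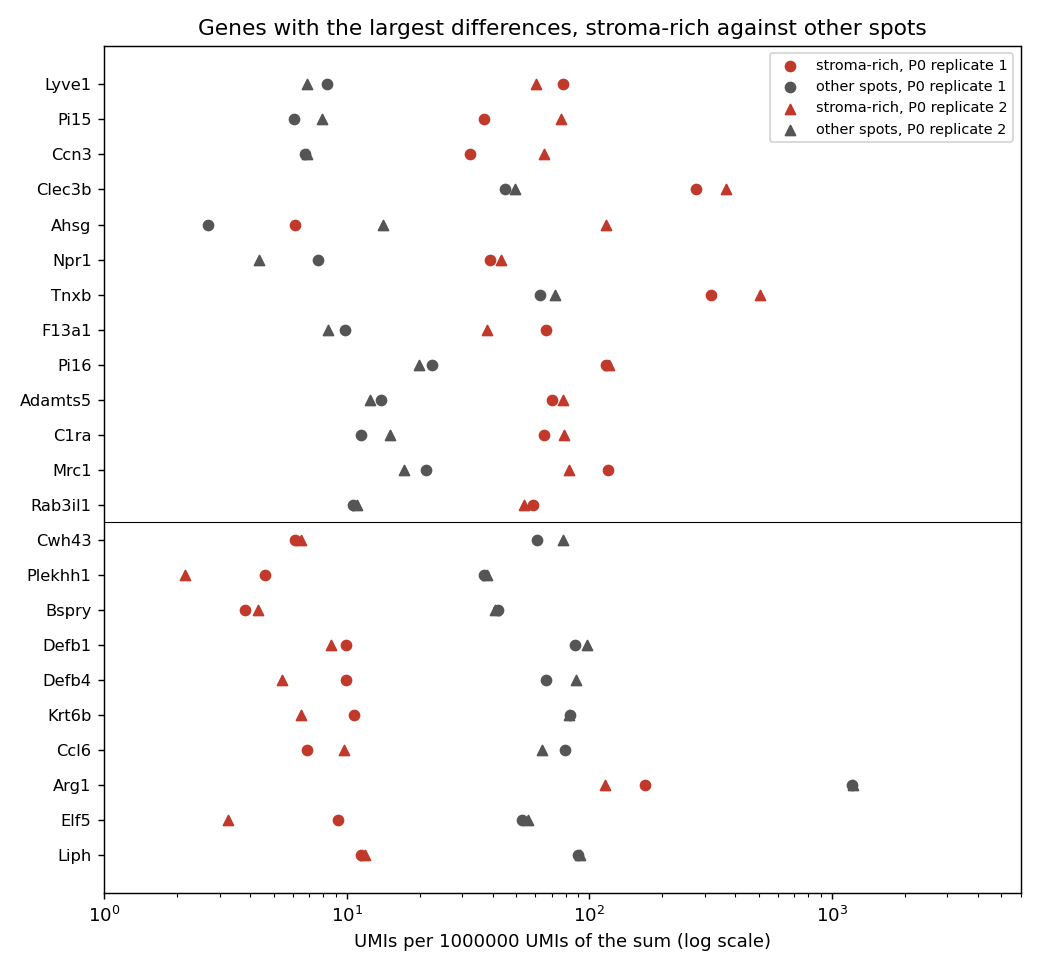
Levels of 13 of the 14 most enriched and of the 10 most depleted genes in stroma-rich spots (red) and other kept spots (grey) of P0 replicate 1 (circles) and 2 (triangles), in UMIs per 1000000 on a log axis. Clec3b sits at 275 and 368 CPM against 44.8 and 49.6 CPM, and Ahsg sits at 6.12 and 117 CPM in the stroma-rich spots of the 2 sections.

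Counts by spot give the same UMIs spot by spot, so they describe their spread and are no second test. A Clec3b UMI was found in 95.9% (95% exact binomial interval 88.5 to 99.1) and 100% (93.3 to 100) of stroma-rich spots. In epithelium-rich spots, which were deeper at medians of 39325 and 38936.5 UMIs, the share was 45.1% and 54.5%. Those spots hold some stromal RNA themselves, with Col1a1 at 663 and 673 CPM, so this share is not a measure of background alone. A Lyve1 UMI was found in 68.5% and 45.3% of stroma-rich spots and in 10.99% and 13.6% of epithelium-rich spots. Both genes were thus found in a larger share of the shallower spots. The 13 macrophage genes summed to a median of 11.8 and 10.2 UMIs per 10000 in stroma-rich spots and 2.59 and 2.58 in the other spots. Intervals treat the spots of a section as independent and cover counting error only, and spots are not replicates.

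Matrix genes formed the broadest group. Leaving aside the selecting genes, 5 of 7 tested fibrillar collagen genes were higher, with a median log2 fold change of 1.74, where the median over all tested genes was −0.00. Col1a2, the partner chain of Col1a1, had 1.84 ± 0.14 and Col5a1, which controls fibril diameter, 1.74 ± 0.11. Of 12 other interstitial collagens 10 were higher (median 1.23), among them Col14a1 at 339 and 449 CPM against 75.6 and 75.3 CPM. The elastic fibre list had 16 of 17 genes higher (median 1.34). In it the microfibril genes Mfap5 and Fbn1 had 1.90 ± 0.12 and 1.79 ± 0.12, and Eln, elastin, stood at 1072 and 1709 CPM against 341 and 392.5 CPM.

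Genes that process this matrix shared its distribution. Of 23 collagen processing and crosslinking genes 21 were higher and 0 lower (median 1.26). Adamts2, the protease that trims procollagen, had 2.09 ± 0.11, and the crosslinking oxidases Lox and Loxl1 had 1.95 ± 0.11 and 1.84 ± 0.11. Of 18 matrix proteases and inhibitors 17 were higher (median 1.32), among them the gelatinase Mmp2 with 1.68 ± 0.11 and the fibroblast protease Fap with 2.21 ± 0.29. Proteoglycan and hyaluronan genes were higher in 9 of 12 cases (median 1.53), including biglycan, Bgn, with 1.5 ± 0.11. The matricellular list had 17 of 21 higher and 1 lower (median 1.54). In it fibronectin, Fn1, had 1.83 ± 0.11 and periostin, Postn, had 1.81 ± 0.13, and the lower gene was Ecm1 at −2.01 ± 0.13.

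The basement membrane list was mixed. Of 18 genes 10 were higher, 3 were lower and 5 did not pass (median 0.86). The lower count was near the 18.1% of all tested genes. Lama2 and Lama4, laminin chains of muscle and vessels, and the linker Nid1 had 1.52, 1.63 and 1.5. The lower genes included Lama3 and Lamb3, laminin chains of epithelial basement membranes, with −0.96 and −1.13.

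Fibroblast genes were examined in lists for general, adventitial and subepithelial types. Of 16 general fibroblast genes 15 were higher (median 1.64), with endosialin, Cd248, at 529.7 and 528 CPM against 114 and 106 CPM, the receptor gene Pdgfra at 1.80 ± 0.13 and the transcription factor gene Ebf1 at 2.23 ± 0.27. Of 16 adventitial genes 12 were higher and 2 lower (median 1.11). Beside Clec3b and Pi16, Cd34 had 1.96 ± 0.11 and Igfbp6 2.08 ± 0.17. The lower ones were Ly6a at −0.83 ± 0.12 and Anxa3 at −1.31 ± 0.12. Against muscle-rich spots alone Ly6a was higher by 1.31 ± 0.18, and with other spots matched on UMIs it stood at 0.21. Of 12 subepithelial genes 6 were higher and 2 lower (median 0.75, and −0.39 with other spots matched on UMIs). The lower counts of the adventitial and subepithelial lists lay below the 18.1% of all tested genes. The ligand gene Wnt5a had 1.56 ± 0.16 and Fgf7 1.55 ± 0.28, and tissue factor, F3, had −2.15 ± 0.13.

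Macrophage, vessel and complement genes were higher nearly throughout their lists. All 13 macrophage genes were higher (median 1.95). C1qa, a chain of the complement recognition protein C1q that macrophages make, stood at 238 and 203 CPM against 48.9 and 46.8 CPM. The growth factor receptor Csf1r had 1.86 ± 0.13 and the chemokine gene Pf4 2.03 ± 0.13. All 12 blood endothelium genes were higher (median 1.87), with the tight junction gene Cldn5 at 108 and 195 CPM against 26.9 and 44.5 CPM and the adhesion gene Pecam1 at 1.72 ± 0.13. Of 6 lymphatic genes 5 were higher (median 1.92), including the lymphatic regulator Prox1 at 2.03 ± 0.55. Among 8 pericyte genes 7 were higher (median 1.08). Of 4 tested genes of the fat list 3 were higher and 1 lower (median 1.71). The fat-cell markers Adipoq, Plin1 and Cidec of that list were at 0 in stroma-rich spots, so these calls came from other genes. Of 12 complement genes 7 passed the filter on low counts and 7 were higher (median 2.08), with the inhibitor Serping1 at 1.95 ± 0.11 and the protease C1s1 at 2.08 ± 0.11. The 4 mast cell markers summed to 1.53 and 7.57 CPM.

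**Figure D3:**
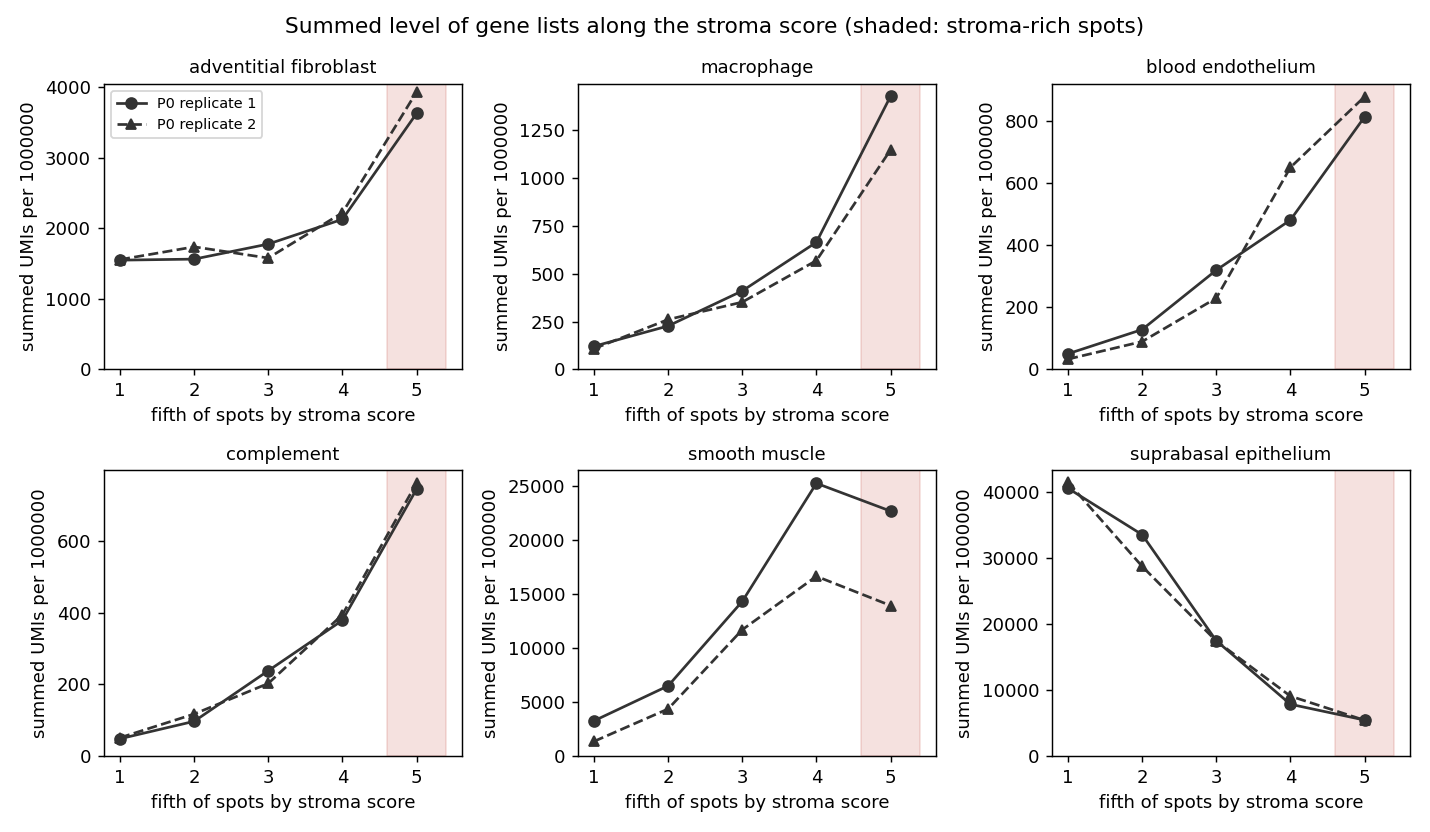
Summed level of 6 gene lists, in UMIs per 1000000, in 5 groups of spots ordered by stroma score, for P0 replicate 1 (circles, solid) and 2 (triangles, dashed), with the stroma-rich spots shaded. Macrophage, endothelial, complement and adventitial genes are highest in the shaded group, smooth muscle genes are highest in the group next to it, and suprabasal epithelial genes fall along the whole range.

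Muscle and epithelial lists showed what else lay in the spots. All 12 smooth muscle genes were higher (median 0.88), the actin gene Acta2 by 0.89 ± 0.14 and the myosin gene Myh11 by 0.90 ± 0.12. With other spots matched on UMIs the smooth muscle median was −0.014 and Myh11 stood at −0.11. Of 12 striated muscle genes 1 was higher (median −0.15), and the list's median CPM ratio was 0.56 in replicate 1 and −0.26 in replicate 2. Of 12 basal epithelial genes 11 were lower (median −1.48) and of 12 suprabasal genes 11 were lower (median −2.58). Of the nerve lists, 4 of 7 glia genes were higher (median 0.92) and 1 of 7 enteric neuron genes was lower (median 0.25), and of 5 blood genes and 4 tendon genes 1 each was higher (medians 0.13 and 0.29). With other spots matched on UMIs these 4 medians turned, to −0.19 for glia, −0.24 for enteric neurons, −0.13 for blood and −0.12 for tendon. Among all tested genes 18.5% were higher and 18.1% lower. The counts of 1 in the striated muscle, enteric neuron, blood and tendon lists are therefore no result about them. The keratin genes Krt15 and Krt13 had −1.84 ± 0.15 and −2.56 ± 0.17. Msln, known from mesothelium, had −2.67 ± 0.15, and the 4 mesothelial markers summed to 54.3 and 40.0 CPM in stroma-rich spots and 354 and 401 CPM in epithelium-rich spots. In epithelium-rich spots Wt1 and Lrrn4 were at 0 in both sections, so the sums there came from Msln and Upk3b alone. In stroma-rich spots Lrrn4 was at 0 in both sections and Wt1 in replicate 2.

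Signalling genes are given by pathway, from ligand to receptor to target. Of 13 Hedgehog genes 9 were higher and 1 lower (median 1.01). The ligand gene Shh, made by foregut epithelium, stood at 9.17 and 7.57 CPM against 27.4 and 22.5 CPM (−1.79 ± 0.28). The receptor gene Ptch1, itself a pathway target, had 0.71 ± 0.12. Gli1, the transcriptional target and effector, stood at 61.9 and 62.7 CPM against 17.8 and 21.1 CPM (1.48 ± 0.17). The ligand gene and its target genes thus lay on opposite sides.

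For Wnt, 10 of 19 genes were higher and 4 lower (median 0.64). The lower count was near the 18.1% of all tested genes. The ligand genes Wnt2 and Wnt5a had 2.32 and 1.56, while Wnt4 and Wnt7b had −2.0 and −2.25, and the secreted inhibitor gene Sfrp1 had 1.65 ± 0.13. Lgr5, the R-spondin receptor gene for which the series is titled, did not pass, at 6.88 and 4.32 CPM against 6.59 and 8.55 CPM (−0.56 ± 0.42). Replicate 1 alone gave 0.058 for Lgr5. For BMP 8 of 16 genes were higher and 1 lower (median 1.01), with the ligand Bmp4 at 1.23 ± 0.25, the antagonist Grem1 at 1.02 ± 0.29 and the target Id3 at 1.0 ± 0.13. With other spots matched on UMIs Grem1 stood at −0.17. For TGF-beta 8 of 11 were higher (median 1.09), including the co-receptor Tgfbr3 at 1.45 ± 0.16.

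Of 16 tested FGF and PDGF genes 7 were higher and 3 lower (median 0.52), with the receptor genes Fgfr1 at 1.53 ± 0.12 and Fgfr3 at −1.66 ± 0.15. The lower count was near the 18.1% of all tested genes. Of 10 IGF genes 6 were higher (median 0.60), and Igf1 had 1.5 ± 0.12. Retinoic acid genes were higher in 2 and lower in 6 of 12 cases (median −0.56). The higher count was near the 18.5% of all tested genes. Aldh1a2, the enzyme that makes retinoic acid, stood at 226 and 195 CPM against 73.5 and 65.3 CPM (1.39 ± 0.11). Cyp26a1, which degrades it, stood at 5.35 and 4.32 CPM against 16.2 and 19.9 CPM (−2.05 ± 0.37). Of 9 chemokine and cytokine genes 6 were higher (median 1.12), among them Cxcl12 at 1.86 ± 0.14, the macrophage growth factor gene Csf1 at 1.79 ± 0.16 and the alarmin gene Il33 at 1.12 ± 0.18.

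Transcription factors of foregut mesenchyme were higher in 8 of 12 cases (median 1.11), with Tcf21 at 1.73 ± 0.12 and Barx1 at 1.71 ± 0.23, and Pitx1 was lower at −0.83 ± 0.12. Of 12 Hox genes 3 were higher and 2 lower (median −0.10), near the 18.5% and 18.1% of all tested genes. Hoxc6 was among the lower ones, at 1.53 and 0 CPM in stroma-rich spots against 13.2 and 6.06 CPM. Of 12 cell cycle genes 0 passed in edgeR's quasi-likelihood test at the adjusted limit (median 0.17). Of 9 immediate early genes 5 were lower (median −0.61), Fos at 12.2 and 16.2 CPM against 28.5 and 77.7 CPM and Junb by −1.73 ± 0.16. Of 13 mitochondrial transcripts 6 were lower (median −0.37), and their median CPM ratio was 0.044 in replicate 1 and −0.36 in replicate 2. Among 11 imprinted genes 8 were higher (median 0.74), including the growth regulator Dlk1 at 1.60 ± 0.11. Depth and muscle content moved with the class, as given above, and their part in these values was not tested.

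Epithelium-rich and muscle-rich spots were then set apart, to show which genes stand above both. The choice of members enters here too, so these values describe. Against epithelium-rich spots, 2998 of 12240 tested genes (24.5%) were higher in stroma-rich spots and 3298 (26.9%) lower. Against muscle-rich spots, 823 (6.72%) were higher and 1077 (8.8%) lower. The genes higher than in both numbered 505 (4.13%), of which 504 were among the 2375 of the first comparison, and 255 (2.08%) were lower than in both. Median CPM ratios over all genes were 0.34 and 0.33 against epithelium and 0.12 and 0.13 against muscle on the log2 scale, and fold changes are again relative to the typical gene. With DESeq2's Wald test 212 were higher than in both and 54 lower.

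**Figure D4:**
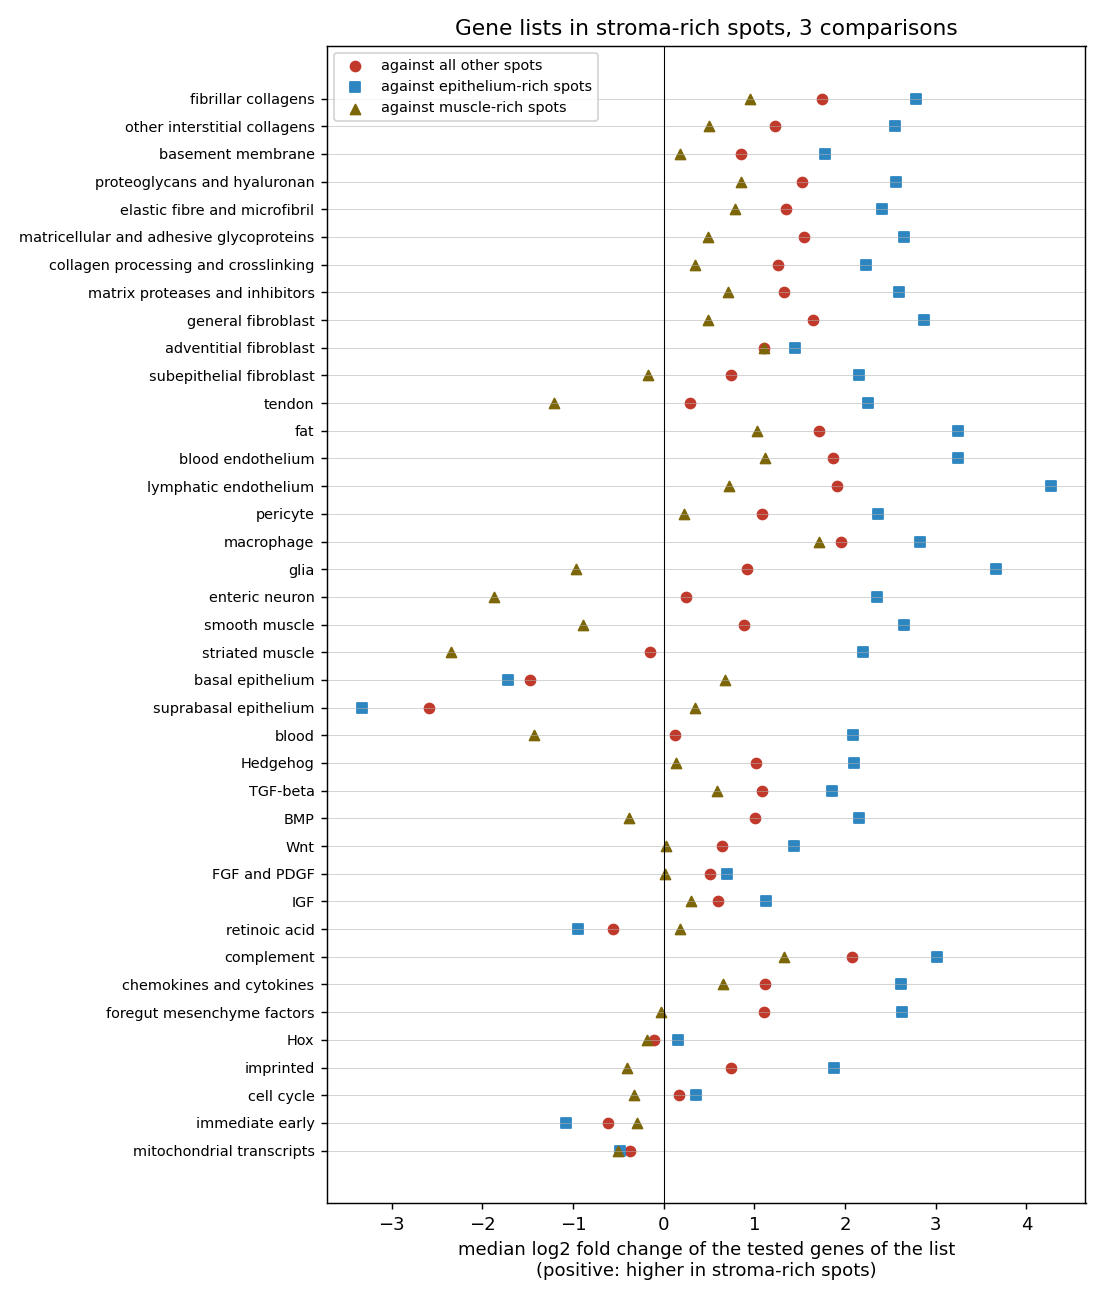
Median log2 fold change of the tested genes of each list in stroma-rich spots against all other spots (red circles), epithelium-rich spots (blue squares) and muscle-rich spots (brown triangles), for lists with at least 4 tested genes. Macrophage genes lie at 1.95 and 1.71 against other and muscle-rich spots, while enteric neuron, smooth muscle and striated muscle genes lie below 0 against muscle-rich spots.

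The genes with the largest margin over both neighbours were macrophage, endothelial, complement and fibroblast genes. C1qc, another C1q chain, stood at 169 and 146 CPM in stroma-rich, 19.96 and 10.4 CPM in epithelium-rich and 40.1 and 46.5 CPM in muscle-rich spots. Pamr1, a gene of a secreted protease-like protein, stood at 152 and 178 CPM, against 16.2 and 15.3 CPM and 38.7 and 44.1 CPM. Cldn5 stood at 108 and 195 CPM, against 14.02 and 7.99 CPM and 47.1 and 31.3 CPM. For each of these genes the stroma-rich values were the highest in both sections, a condition of naming them by rank, and the values did not overlap. The log2 fold changes of C1qc, Pamr1 and Cldn5 over muscle-rich spots were 1.74 ± 0.17, 1.86 ± 0.16 and 1.74 ± 0.26. Pi15, the macrophage receptor gene Fcrls, the collagen gene Col6a5, the lysozyme gene Lyz2, C1qa and Clec3b had 1.95, 1.84, 1.77, 1.76, 1.75 and 1.74.

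Counts by list show the same groups. Of 12 macrophage genes tested here 10 were higher than in both neighbours, of 12 blood endothelium genes 9, of 7 complement genes 6, and of 17 elastic fibre genes 13, beside 4.13% of all tested genes. Of 16 adventitial genes 8 stood above both. Of 4 tested fat genes 2 did, Cd36 and Fabp4, while the fat-cell markers Adipoq, Plin1 and Cidec were at 0 in stroma-rich spots. Of 12 subepithelial genes 1 did, Foxl1, a transcription factor gene, at 6.12 and 10.8 CPM in stroma-rich spots and 0.539 and 2.08 CPM and 1.41 and 1.60 CPM in the neighbours. Of 11 TGF-beta genes 6 stood above both, of 13 Hedgehog genes 3, of 8 chemokine and cytokine genes 3 and of 10 IGF genes 3. Of 19 Wnt genes 2 did and of 12 retinoic acid genes 1. Of 16 BMP genes and of 15 FGF and PDGF genes 0 did. The signalling genes above both included Gli1, Ptch1, Aldh1a2, Cxcl12, Csf1, Il33 and Sfrp1. Over muscle-rich spots Gli1 was higher by 1.28 ± 0.24, Aldh1a2 by 1.32 ± 0.14 and Il33 by 1.67 ± 0.26. Genes lower than both included 9 of 13 mitochondrial transcripts, the BMP targets Id1 and Id2, and Fos. The median log2 CPM ratio of the mitochondrial list against epithelium-rich spots was 0.038 in replicate 1 and −0.23 in replicate 2. Against muscle-rich spots it was −0.30 and −0.49. Their calls against epithelium-rich spots are thus relative to the typical gene. Of the tested genes of the enteric neuron, glia, smooth muscle and striated muscle lists 0 stood above both, and all 7 tested enteric neuron genes were lower than in muscle-rich spots (median −1.87).

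Promoters are shown for a fibroblast, a macrophage and an endothelial gene that stood above both neighbours together. Each is the stretch of 250 bases before the start site in the RefSeq promoter table (GRCm38.p6, the mm10 build), printed along the gene's strand. By the RefSeq gene bounds Pi16 starts at chr17:29318796 and C1qc at chr4:136892936, so the end of both stretches lies inside the gene. The marked CCAAT box of Pi16 does too. Cldn5 starts at chr16:18776847, directly after its stretch. Capitals mark a CCAAT box, or its reverse ATTGG, in Pi16 and Cldn5. In C1qc they mark the reverse complement of GAGGAAGT, the core bound by the myeloid factor PU.1. The stretches lie at chr17:29318632-29318881 on the + strand for Pi16, at chr4:136892915-136893164 on the − strand for C1qc and at chr16:18776597-18776846 on the + strand for Cldn5.
Pi16: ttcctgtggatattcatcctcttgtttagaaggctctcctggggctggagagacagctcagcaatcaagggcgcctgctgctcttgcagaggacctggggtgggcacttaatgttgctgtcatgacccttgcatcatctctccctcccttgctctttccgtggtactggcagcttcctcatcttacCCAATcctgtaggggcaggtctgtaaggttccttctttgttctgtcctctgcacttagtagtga
C1qc: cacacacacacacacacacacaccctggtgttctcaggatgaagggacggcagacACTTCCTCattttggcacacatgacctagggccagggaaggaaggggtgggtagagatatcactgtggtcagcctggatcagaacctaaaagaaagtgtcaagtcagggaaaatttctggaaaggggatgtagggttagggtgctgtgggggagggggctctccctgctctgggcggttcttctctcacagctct
Cldn5: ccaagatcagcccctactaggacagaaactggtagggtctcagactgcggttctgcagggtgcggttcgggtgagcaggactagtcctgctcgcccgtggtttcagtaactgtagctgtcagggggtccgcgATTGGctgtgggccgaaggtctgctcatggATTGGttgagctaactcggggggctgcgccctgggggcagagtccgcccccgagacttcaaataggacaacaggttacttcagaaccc
Motifs were searched on both strands in windows of 300 bases that run 50 bases past the start site, and none overlaps another as spelled. The CCAAT box occurred in 37.5% of the 368 matched promoters of the 505 genes, 38.4% of those of tested genes and 37.9% of all 27025 in the table. The motif GAGGAAGT occurred in 4.35%, 2.87% and 3.28%. The TATA box, spelled TATAAA, occurred in 8.42%, 7.18% and 14.2%. A match is a description only.

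The stroma-rich spots were next divided by their surroundings, a split that uses the counts of neighbouring spots and no count of the spot itself. Members above their section's median in the epithelial minus muscle score of their neighbours formed the epithelium side (36 and 26 spots), and the others the muscle side (37 and 27 spots). Of 8257 genes tested, 121 (1.47%) were higher on the epithelium side and 47 (0.569%) on the muscle side. These calls depend on the fit: without the section block 22 and 0 passed, and with DESeq2's Wald test 3 and 0. The counts at an unadjusted p under 0.05 were 416 and 347 by edgeR's quasi-likelihood test.

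On the epithelium side the leading genes included several of stratified epithelium. Dsg3, a desmosomal cadherin, stood at 111 and 93.8 CPM there and at 39.5 and 12.6 CPM on the muscle side (1.92 ± 0.30, adjusted p = 8.86e-07 by edgeR's quasi-likelihood test). Padi1, a citrullinating enzyme of keratinocytes, stood at 55.4 and 60.3 CPM against 19.7 and 4.19 CPM (2.15 ± 0.41). Lypd3 stood at 52.4 and 67.0 CPM against 16.7 and 12.6 CPM (1.97 ± 0.39). The epithelium side was higher in both sections for each, which the naming rule requires. The tight junction gene Tjp3 stood at 32.3 and 44.6 CPM against 9.11 and 0 CPM. Plch2, Rab11fip1, Tmem79 and Crct1 had log2 fold changes of 2.54, 2.08, 2.03 and 1.90. Of 9 suprabasal genes 7 were higher and of 5 basal genes 3, and the 12 suprabasal genes of the list summed to 7442 and 8779 CPM against 3552 and 2335 CPM. The part of this epithelial RNA in the other differences was not tested.

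On the muscle side the leading genes included several known from nerves, pacemaker cells and muscle. Chrm2, the muscarinic receptor of smooth muscle, stood at 117 and 50.3 CPM there and at 30.8 and 15.6 CPM on the epithelium side (−1.83 ± 0.32 as epithelium over muscle side, adjusted p = 2.8e-05 in the same edgeR test). The neuronal gene Uchl1 stood at 28.8 and 48.2 CPM against 9.24 and 8.93 CPM, and the neurturin receptor gene Gfra2 at 27.3 and 44.0 CPM against 10.8 and 8.93 CPM. Kit, the receptor of the interstitial cells of Cajal, stood at 53.1 and 27.2 CPM against 20.02 and 4.46 CPM (−1.64 ± 0.44). The muscle side was higher in both sections for each, which the naming rule requires. Ccn3, Tmem100 and Csrp3 differed more in replicate 2. Ccn3, a matricellular gene, stood at 38.0 and 111 CPM against 26.2 and 15.6 CPM, and Csrp3, of striated muscle, at 34.9 and 149 CPM against 23.1 and 26.8 CPM. Of 3 tested genes of the striated muscle list 0 passed, and its 12 genes summed to 1518 and 5190 CPM on the muscle side against 2150 and 1810 CPM, so the sections differed in direction. In the smooth muscle list 4 of 6 tested genes were higher on this side, and its 12 genes summed to 25932 and 16044 CPM against 19302 and 11654 CPM.

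Of 16 tested elastic fibre genes 3 were higher on the muscle side and 13 did not pass (median −0.050), where 0.569% of all tested genes were higher there. The 3 were Eln, Fbln2 and Fbln5, with −0.72 ± 0.14, −1.26 ± 0.25 and −0.81 ± 0.24. Eln stood at 1155 and 2371 CPM against 989 and 1004 CPM, and Fbln2 at 124 and 409 CPM against 120.1 and 64.7 CPM, so these differences lay mainly in replicate 2. The mesenchymal transcription factor gene Prrx1 (−1.26), Sparcl1 (−0.82) and Dlk1 (−0.65) were also higher there. On that side 1 of 15 general fibroblast, 2 of 20 matricellular and 2 of 11 imprinted genes were called. Pitx1, Wnt4, Fgfr3 and F3 were higher on the epithelium side, by 1.12, 1.12, 1.16 and 1.19. Each was the only gene called there of its list, of 9 foregut factors, 9 Wnt, 10 FGF and PDGF and 5 subepithelial genes. In the first comparison each had a negative log2 fold change in stroma-rich spots. Of the 14 tested adventitial, 12 macrophage and 11 blood endothelium genes, 0 passed in edgeR's quasi-likelihood test, near the 1.47% and 0.569% of all tested genes. Clec3b stood at 237 and 335 CPM on the epithelium side and 313 and 398 CPM on the muscle side (−0.31 ± 0.19), and Mrc1 at 106 and 78.1 CPM against 132 and 85.9 CPM (−0.23 ± 0.24).

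**Figure D5:**
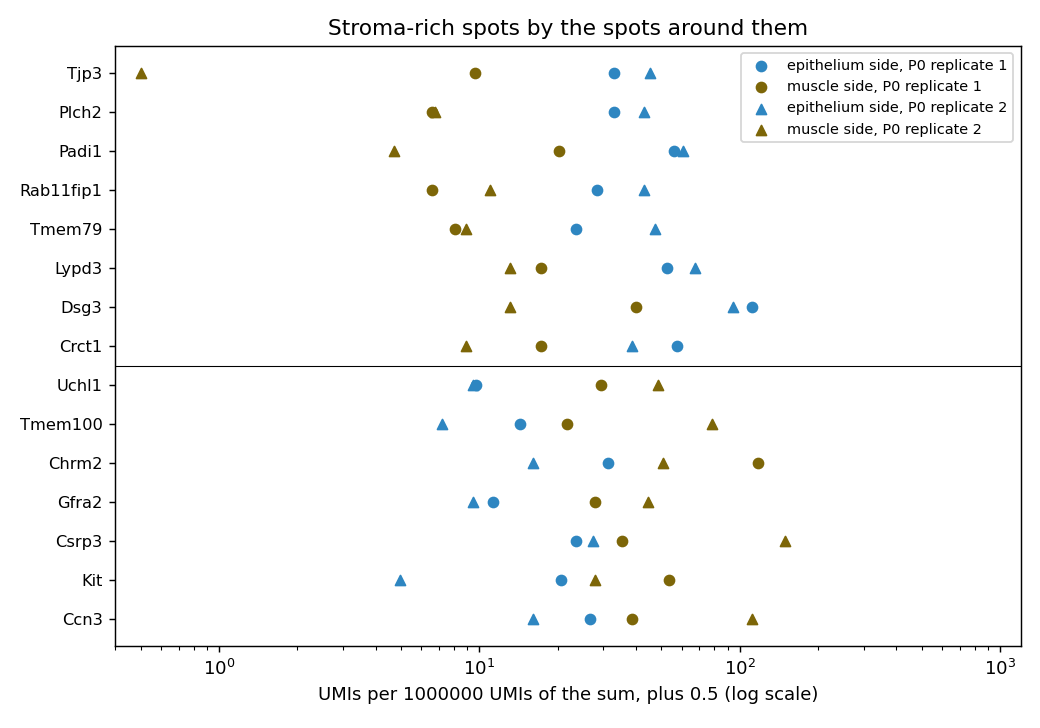
Levels of 15 genes with large differences between stroma-rich spots on the epithelium side (blue) and the muscle side (brown), for P0 replicate 1 (circles) and 2 (triangles), in UMIs per 1000000 plus 0.5 on a log axis. Dsg3 sits at 111 and 93.8 CPM against 39.5 and 12.6 CPM, and the lower 7 genes lie higher on the muscle side in both sections.

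Position at the tissue edge gave a further split that uses no expression value. A spot was at the edge where at least 1 of its 6 grid neighbours was not over tissue, which held for 57 of 73 and 48 of 53 members. These are 78.1% and 90.6% of members, where 85.9% and 91.9% of other spots lay at the edge. The members inside numbered 16 and 5, so the inside sum of replicate 2 is thin. Of 8274 genes tested, 33 (0.399%) were higher at the edge and 2 (0.0242%) lower. Without the section block 2 and 0 passed, and with DESeq2's Wald test 0 and 0. At an unadjusted p under 0.05 edgeR's quasi-likelihood test gave 330 and 168.

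Striated muscle genes led the edge spots. Ckm, muscle creatine kinase, stood at 194 and 259.9 CPM at the edge and 25.8 and 85.0 CPM inside (2.45 ± 0.35, adjusted p = 5.74e-09 by edgeR's quasi-likelihood test). Tnnc2, fast troponin C, stood at 154 and 309.7 CPM against 14.8 and 109 CPM (2.43 ± 0.35). The myosin gene Myh8 and the Z-disc gene Actn2 had 2.02 ± 0.34 and 1.92 ± 0.51. The edge was higher in both sections for each, which the naming rule requires. Neb, which encodes nebulin, had 30 and 55 UMIs at the edge and 0 inside, so that its level was at least 2.61-fold and 1.79-fold higher there when the inside is set to 3 UMIs per section. Tnnc1, slow troponin C, stood at 94.5 and 51.0 CPM at the edge and 11.1 and 0 CPM inside. Of 11 striated muscle genes 9 were higher, and the 12 genes of the list summed to 2190 and 3726 CPM at the edge and 461 and 1786 CPM inside. Enpp2, which encodes autotaxin, was lower at the edge, at 289 and 153 CPM against 539 and 425 CPM (−1.0 ± 0.21). Of the 13 tested adventitial, 12 macrophage and 11 blood endothelium genes, 0 passed in that test, where 0.399% and 0.0242% of all tested genes did, so this count is no result about these lists.

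The same rule was applied to the embryo sections to describe the P0 pattern at earlier stages. Those sections are titled embryonic esophagus but labelled as whole embryo, with 1 section a stage. The rule therefore picks stroma of any organ, and no test was made. The highest 20% were 644 of 3220 kept spots in the E13.5 section and 718 of 3588 in the other. Of the genes higher at P0, 70.3% and 70.1% were also on the higher side there, where 50.7% and 47.7% of all tested genes were. Of the genes lower at P0, 48.8% and 56.6% were on the lower side, where 49.3% and 52.3% of all tested genes were.

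By gene, Mrc1 had a log2 CPM ratio (pseudocount 0.5) of 1.92 in the earlier and 1.91 in the later section, and Lyve1 had 1.84 at both. Clec3b stood at 0.60 CPM in the chosen spots and 0.40 CPM in the others at E13.5, while at E16.5 it stood at 86.2 and 24.4 CPM. Pi16 stood at 3.38 and 2.04 CPM in the earlier section and at 59.6 and 18.7 CPM in the later. Mrc1 and Lyve1 were thus on the stroma side in each section, while both adventitial markers were scarce in the earlier one. Cldn5 had 0.85 and −0.081, and Arg1, depleted at P0, had 0.57 and 0.26.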

How the data were processed

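The deposited files hold raw UMI counts per gene and spot from Space Ranger 2.0.0, per the file headers, and the submitters' processing notes name mm10 as the build. The spot position tables, deposited by the authors, gave tissue flags (a score of 0 or 1) and grid positions. The sections held 366 and 271 spots over tissue with 10261248 and 7357333 UMIs, and shared 24 spot barcodes, which are slide positions. No doublet caller was run, since spots are mixtures. Gene symbols follow the files.

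Summed counts were fitted with edgeR 4.0.16 in R 4.3.3 (TMM, filterByExpr, quasi-likelihood F test, section block, Benjamini-Hochberg adjustment at 0.05), with 1 residual degree of freedom beside a prior of 18.0 in the first comparison, 3 beside 33.9 for regions and 1 beside 141 for sides. For the edge the prior was infinite, so those p-values treat the dispersion as known. SEs are the log2 fold change over the root of F. The replicate numbers name sections that hold both classes compared, so the block pairs classes of 1 section. The selecting genes were left out of all tests, and region markers out of the region and side fits. Genes were named by rank: 14 higher and 10 lower, 10 over both neighbours, 8 for each side and 6 for the edge, past adjustment, the same way in both sections and at 20 CPM or more, plus list genes beside their list's count. The members and the 42 lists were chosen with earlier results of these data known. The script was tested on simulated counts. DESeq2 1.42.0 was an alternative. Some genes that met the naming rule are not reported here.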

Additional observations from a re-analysis of the deposited data

How the results depend on the processing

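Each class gave 1 sum per section, so no count of genes could be tested with a section left out. The section is the replicate block, because both classes of a comparison come from the same section. Without the replicate block 2036 genes were higher and 2054 lower than in other spots, 514 were higher and 715 lower than in muscle-rich spots, 155 were lower than in both neighbours, 22 and 0 were called on the epithelium and muscle sides, and 2 and 0 at and inside the edge. DESeq2's Wald test gave 940 higher and 1068 lower against other spots, 2020 lower than in epithelium-rich spots, 321 higher and 409 lower than in muscle-rich spots, 212 higher and 54 lower than both, 3 and 0 for the sides, and 0 and 0 for the edge. DESeq2's size factors in edgeR gave 77 and 22 for the sides, and the outermost members by neighbour score gave 62 and 5. For the edge, no filter on low counts gave 21 and 1, and at least 2 missing neighbours gave 66 and 10. Thinning to 10000 UMIs left 1556 higher genes, and leaving out epithelium-rich spots left 1463 lower genes. Matching the other spots on UMIs, chosen after seeing the data, left 652 higher and 645 lower.

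Under that matching the values turned for Ly6a (0.21), Grem1 (−0.17) and Myh11 (−0.11), and the list medians for subepithelial fibroblasts (−0.39), tendon (−0.12), glia (−0.19), enteric neurons (−0.24), smooth muscle (−0.014), blood (−0.13) and cell cycle (−0.034). Without epithelium-rich spots the medians turned for tendon (−0.18), enteric neurons (−0.40), blood (−0.39) and cell cycle (−0.00861). Enteric neurons also turned without the filter (−0.26), with the highest 10% (−0.12) and after thinning (−0.058). Striated muscle turned with the highest 30% (0.083), with Dcn, Lum and Dpt alone (0.28) and with markers scaled to SD 1 (0.039). Blood turned after thinning (−0.086), the Hox list with the highest 30% (0.057) and with the 3 genes alone (0.019), and cell cycle with the highest 10% (−0.014). With a section left out the CPM ratio ranged from −0.26 to 0.56 for striated muscle, −0.048 to 0.13 for Hox, −0.36 to 0.044 for mitochondrial transcripts, −0.070 to 0.52 for blood and −0.91 to 0.058 for Lgr5. With the highest 5% of the embryo sections the shares on the same side were 67.5% and 54.7% at E13.5 and 65.9% and 61.8% at E16.5, for genes higher and lower at P0. Of the values of named genes under all alternatives 1839 stayed on their side of the limit or within the spread, 80 lost the call, 152 moved by more than the spread and 4 turned. The cause of these shifts was not tested.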
